A study of Mus musculus with 6 samples.

Results

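The transcripts examined here encode the dopamine D2 receptor and the proteins that act directly on or below it at the membrane. They comprised 10 genes, the receptor *Drd2*, the β-arrestins *Arrb1* and *Arrb2*, the receptor kinases *Grk2*, *Grk5* and *Grk6*, and the inhibitory G protein α subunits *Gnai1*, *Gnai2*, *Gnai3* and *Gnao1*. The genes were taken by symbol, through the Ensembl identifiers of the expression tables, and all 10 had a row among the 17193 genes listed. RNA sequencing had been performed on astrocytes of wild type C57BL/6 mice aged 3 months, 3 libraries from mice labelled Mock and 3 from mice labelled Quinpirole. Quinpirole is an agonist of D2-like dopamine receptors, and the study used these libraries to look for genes that respond to activation of the receptor in astrocytes. The cells had been dissociated from brain and captured with microbeads against ACSA-2, an epitope of the astrocyte protein encoded by *Atp1b2*. The labels give no dose, duration or pooling for these mice and do not say whether libraries of a group came from separate animals, so the p-values below measure the spread between these libraries, which may be technical.

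An agonist-bound D2 receptor activates heterotrimeric G proteins of the inhibitory class, whose α subunits restrain adenylyl cyclase and whose released βγ dimer opens potassium channels and acts on other effectors. Receptor kinases then phosphorylate the receptor, and β-arrestins bind the phosphorylated form, which uncouples it from the G protein, links it to clathrin and AP-2 for internalisation, and brings kinases and phosphatases to a signalling scaffold. Signalling by D2 receptors can therefore run through a G protein branch or an arrestin branch.

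Values are FPKM, fragments scaled to the length of the transcript and to the depth of the library, so levels of different genes can be compared per length. The depth estimated from the steps between the lowest FPKM values was 25700000 to 27600000 fragments in the Mock libraries and 22300000 to 26800000 in the Quinpirole libraries. Differences between groups were tested with limma on log2(FPKM + 1) over the 12255 genes with a mean of at least 1 FPKM, and a gene was called at a Benjamini-Hochberg adjusted p under 0.05. With these settings 1339 genes were called, which is 10.9% of those tested, 704 higher in Quinpirole libraries (5.74%) and 635 lower (5.18%). The share of called genes that were higher was 52.6%, and it was 15.1% when each library was rescaled to the same sum (TPM), 36.1% after quantile normalization and 41% when the variance was fitted without a trend. All 10 astrocyte markers examined were detected, with summed FPKM of 1530 to 1687 in Mock and 1506 to 1539 in Quinpirole libraries, and 3 of them (*Atp1b2*, *Slc1a2* and *Slc4a4*) were called lower. *Sox9* had all Quinpirole values below all Mock values without being called (limma, adjusted p = 0.064). The rest overlapped and were not called. Their log2 fold changes were -0.12 for *Gfap*, -0.11 for *Slc1a3*, -0.04 for *Aqp4*, -0.02 for *Aldoc*, 0.04 for *Aldh1l1* and 0.09 for *Gja1*. The libraries also held 2518 to 2881 FPKM of *Acta2*, a smooth muscle and mural cell gene that was not called (log2 fold change 0.11, adjusted p = 0.171). Of the other endothelial and mural markers, *Pdgfrb* was called lower (-0.30, adjusted p = 0.0227), *Kdr* and *Flt1* had all Quinpirole values below all Mock values without being called (adjusted p = 0.158 and 0.163), and *Pecam1*, *Cdh5* and *Rgs5* were under 1 FPKM. Microglial markers gave 345.4 to 361.4 against 359.7 to 395.6 summed FPKM over 7 genes in Mock and Quinpirole libraries. Most of that sum was *C1qa*, with 197.9 to 216.7 FPKM in Mock and 224.0 to 252.2 FPKM in Quinpirole libraries. *C1qa* and *Aif1* had all Quinpirole values above all Mock values, *Cx3cr1*, *Csf1r* and *Itgam* all below, and *P2ry12* and *Tmem119* overlapped. None of the 7 was called. Of 8 neuronal markers 7 were under 1 FPKM in every library. The other, *Tubb3*, had 16.6 to 22.3 FPKM, with all Quinpirole values above all Mock values, and was not called (0.21, adjusted p = 0.0844). Oligodendrocyte lineage markers summed to 158.7 to 177.8 FPKM in Mock and 164.5 to 175.1 FPKM in Quinpirole libraries, mostly *Cnp*. Ependymal markers summed to 135.6 to 148.7 and 136.1 to 143.3 FPKM, mostly *Foxj1*. None of these 2 lists was called. The part of other cells in the results below was not tested, and in RNA from many cells fewer cells of a type and less RNA per cell cannot be told apart.

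The G protein branch is the one that pertussis toxin blocks, through a cysteine at the fourth position from the end of the α subunits of the Gi and Go class. The last 60 coding bases of the 4 members are shown because this codon, in capitals, is what they share, and because it tells them from *Gnaz*, the one member of the same family that the toxin does not modify. *Gnaz* is not among the 10 genes and is added for contrast. Sequences were cut from GENCODE M21 on GRCm38 and are written 5′ to 3′ on the coding strand.
*Gnai1* (chr5:18267022-18267081, minus strand, exon 8): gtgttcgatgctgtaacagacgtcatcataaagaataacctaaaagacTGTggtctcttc
*Gnai2* (chr9:107615638-107615697, minus strand, exon 8): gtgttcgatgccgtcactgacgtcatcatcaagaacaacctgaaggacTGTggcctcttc
*Gnai3* (chr3:108109425-108109484, minus strand, exon 8): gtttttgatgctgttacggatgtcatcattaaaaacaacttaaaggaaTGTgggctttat
*Gnao1*, distal end (chr8:93966993-93967052, plus strand, exon 8): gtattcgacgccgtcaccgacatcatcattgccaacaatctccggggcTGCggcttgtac
*Gnao1*, proximal end (chr8:93956190-93956249, plus strand, exon 8): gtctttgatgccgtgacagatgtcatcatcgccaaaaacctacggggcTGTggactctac
*Gnaz* (chr10:75015150-75015209, plus strand, exon 4): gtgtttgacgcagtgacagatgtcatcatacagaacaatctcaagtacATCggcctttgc
The cysteine codon was TGT in *Gnai1*, *Gnai2*, *Gnai3* and the proximal end of *Gnao1* and TGC in the distal end of *Gnao1*, whereas *Gnaz* held ATC, an isoleucine codon. The 2 ends of *Gnao1* come from alternative last coding exons, and the deposited value of a gene does not separate them. The coding sequences of the 3 Gnai genes were 73.8% to 78.5% identical, and each was 66.3% to 69.9% identical to that of *Gnao1*. The longest run of identical bases between any pair of the 4 was 32, so that reads of most positions can be told apart. In the longest transcript of each of the 10 genes, the one examined, words of 50 bases occurred in transcripts of other genes only for *Grk5* (2.01% of its words, with *Gm16284*) and *Grk6* (2.48%, with *5430434F05Rik*).

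Of the 10 transcripts *Gnai2* was far above the rest and *Drd2* was near the limit of detection. By mean FPKM over the 6 libraries the order was *Gnai2* (538.7), *Gnao1* (47.1), *Gnai3* (37.4), *Grk2* (32.7), *Arrb2* (24.4), *Grk6* (22.8), *Grk5* (10.2), *Arrb1* (6.79), *Gnai1* (5.96) and *Drd2* (0.0533). Neighbours in this order kept it in 6 of 6 libraries, except *Arrb2* over *Grk6*, which held in 3 of 6, and *Arrb1* over *Gnai1*, which held in 4 of 6. Each class thus had a leading member, *Gnai2* for the α subunits, *Grk2* for the kinases and *Arrb2* for the arrestins.

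**Figure D1:**
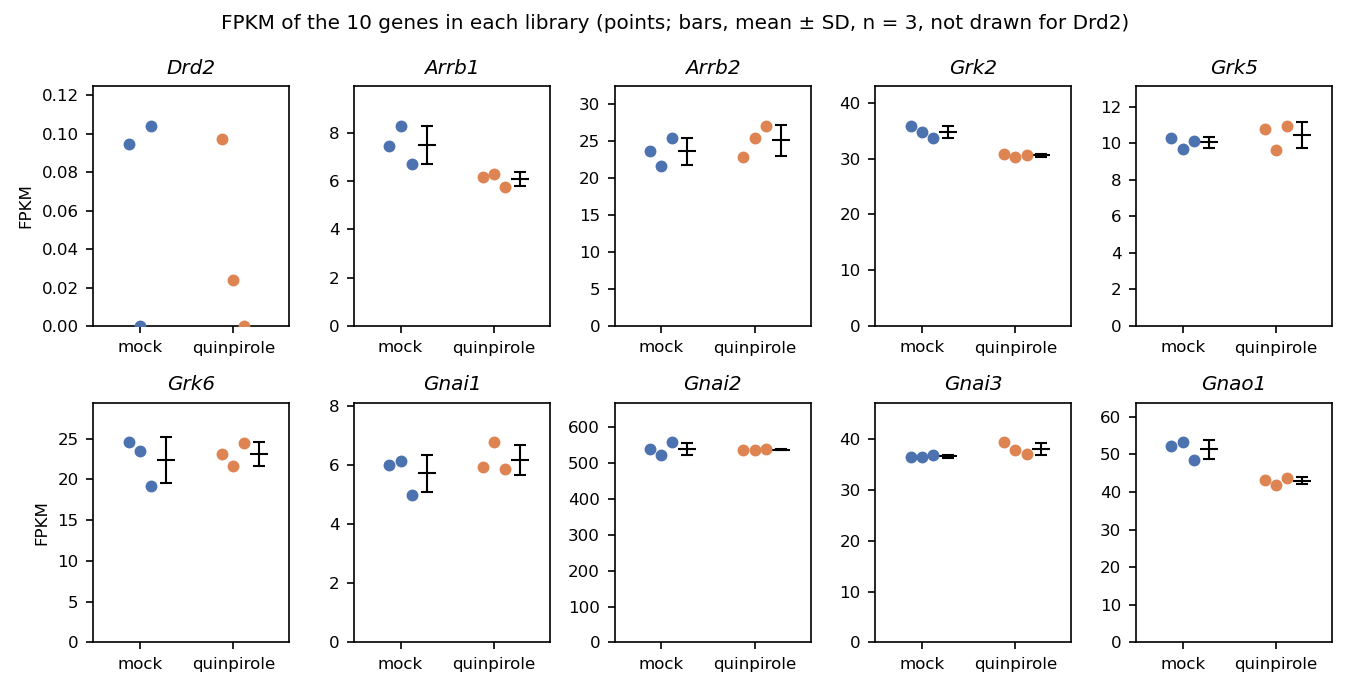
FPKM of each of the 10 genes in every library, 1 panel a gene with its own vertical axis from 0; points are libraries, blue for Mock and orange for Quinpirole, and bars give the mean ± SD of 3 libraries except for *Drd2*. The groups are apart for *Arrb1*, *Grk2* and *Gnao1*, with Quinpirole lower, and for *Gnai3*, with Quinpirole higher, and *Drd2* is at 0 in 1 library of each group.

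*Drd2* encodes the receptor itself, a Gi- and Go-coupled receptor best known from striatal and pituitary cells (chr9:49340627-49408177, plus strand, 2547 exonic bases in 1 transcript). Its FPKM was 0.0947, 0 and 0.104 in the Mock libraries and 0.0972, 0.0239 and 0 in the Quinpirole libraries. At the estimated depths these values correspond to about 6.44, 0 and 6.81 fragments and to 6.64, 1.55 and 0 fragments. A count of 0 allows up to 3 fragments, which is 0.0427 to 0.0528 FPKM here, for counting error only. *Drd2* was thus listed at 0 in 2 of 6 libraries and fell under the expression filter, so no difference between the groups was tested or detectable at this depth. The other D2-like receptors were as low, *Drd3* with at most 0.0384 FPKM and *Drd4* with at most 0.0676 FPKM in any library.

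*Gnao1* had the smallest adjusted p of the 9 genes tested by limma on FPKM as deposited. It encodes the α subunit of Go, the abundant inhibitory G protein of the brain, and lies at chr8:93809966-93969388 on the plus strand, with 11053 exonic bases. FPKM was 52.3, 53.2 and 48.6 in the Mock libraries and 43.3, 41.9 and 43.7 in the Quinpirole libraries. Every Quinpirole library was below every Mock library, and the Quinpirole values lay close together. The mean fell by 16.4%, from 51.4 ± 2.44 to 43.0 ± 0.933 FPKM (SD, n = 3 each), a log2 fold change of -0.25 with a standard error of 0.04 and a 95% interval of -0.36 to -0.15 (limma, adjusted p = 0.0251). The call did not withstand a correction for exonic length, which left a log2 fold change of -0.14 (adjusted p = 0.0583), or for length and GC content together (-0.11, adjusted p = 0.111). It was also lost when Mock 1, Mock 2, Quinpirole 1, Quinpirole 2 or Quinpirole 3 was left out (adjusted p = 0.0775, 0.0981, 0.0644, 0.0822 and 0.0543), with log2 fold changes from -0.26 to -0.23, and kept without Mock 3 (-0.29, adjusted p = 0.027). An exon of *Gnao1* overlaps the annotated gene *4930488L21Rik*, and no stranded counting is stated.

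*Gnai2* dominated the inhibitory α subunits, and its group means lay close together in FPKM as deposited. It encodes the Gi subunit found in most cell types (chr9:107614125-107635367, minus strand, 3779 exonic bases). FPKM was 539.5, 522.7 and 557.7 in the Mock libraries and 537.8, 535.5 and 538.9 in the Quinpirole libraries, the latter all within the Mock range. The means were 540.0 ± 17.5 and 537.4 ± 1.76 FPKM (SD, n = 3), and the log2 fold change was -0.01 with a 95% interval of -0.09 to 0.08 (limma, adjusted p = 0.924). This value depended on the scaling. It was -0.09 after rescaling to TPM (limma, adjusted p = 0.101) and -0.11 with quantile normalization (adjusted p = 0.148).

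*Gnai3* and *Gnai1* encode the remaining Gi subunits, and neither was called. *Gnai3* (chr3:108107280-108146146, minus strand, 3262 exonic bases) had 36.7 ± 0.291 FPKM in Mock and 38.1 ± 1.18 FPKM in Quinpirole libraries (SD, n = 3). Its Quinpirole values were all above its Mock values, but by little, with a log2 fold change of 0.05 and a 95% interval of -0.03 to 0.14 (limma, adjusted p = 0.369). The sign of this difference turned under rescaling to TPM (-0.03) and under correction for length and GC content (-0.04). *Gnai1* (chr5:18265135-18360355, minus strand, 3135 exonic bases) had 5.73 ± 0.621 and 6.19 ± 0.506 FPKM, with overlapping groups and a 95% interval of -0.11 to 0.30 around a log2 fold change of 0.10 (limma, adjusted p = 0.473).

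Summed over the 4 genes, inhibitory α subunit FPKM was 634.4, 618.5 and 648.2 in the Mock libraries and 626.4, 622.1 and 625.6 in the Quinpirole libraries, and these groups overlapped. *Gnai2* made up 85.1%, 84.5% and 86.0% of the sum in Mock and 85.9%, 86.1% and 86.2% in Quinpirole libraries. The difference of 0.837 percentage points was not past the threshold (two-sided exact permutation test, p = 0.2, where 3 against 3 libraries cannot go below 0.1). The share of *Gnao1* was 8.24%, 8.60% and 7.49% in Mock and 6.91%, 6.74% and 6.99% in Quinpirole libraries. *Gnai3* held 5.79% ± 0.0997 and 6.10% ± 0.182 of the sum and *Gnai1* 0.905% ± 0.117 and 0.992% ± 0.0846 (SD, n = 3). *Gnas*, which encodes the stimulatory α subunit, reached 0.788 to 0.810 times the inhibitory sum in Mock and 0.857 to 0.904 times in Quinpirole libraries. Neither the *Gnao1* share nor this ratio was tested. A difference between libraries that varies with length would remain in both. *Gnao1* has 11053 and *Gnas* 11186 exonic bases, beside 3135 to 3779 for the Gnai genes.

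**Figure D2:**
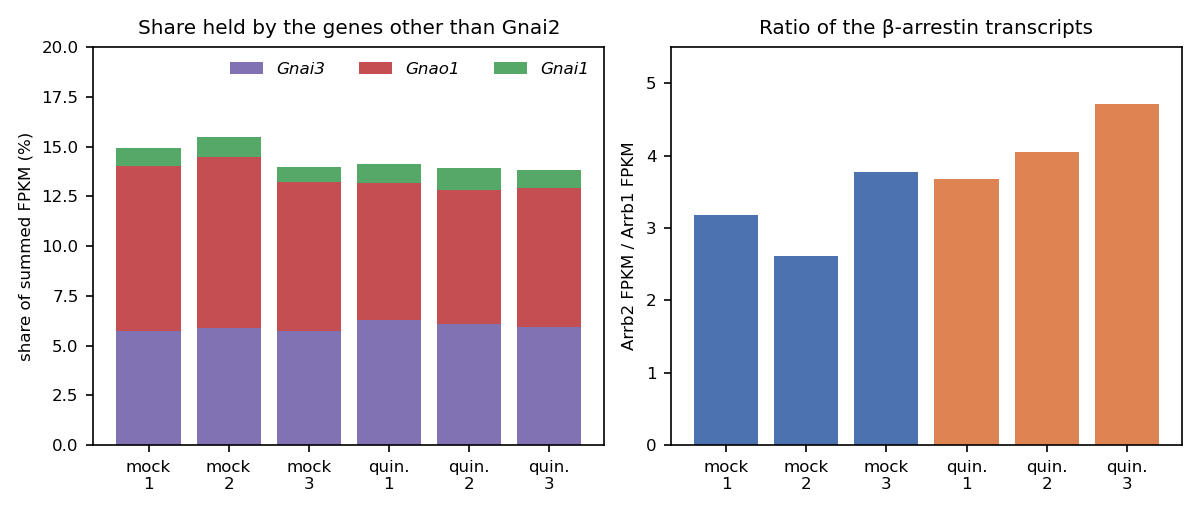
Left, share (%) of the summed FPKM of *Gnai1*, *Gnai2*, *Gnai3* and *Gnao1* held by the 3 genes other than *Gnai2* in each library, stacked from 0; right, *Arrb2* FPKM divided by *Arrb1* FPKM in each library, from 0. The *Gnao1* segment is 7.49% to 8.60% in Mock and 6.74% to 6.99% in Quinpirole libraries, and the arrestin ratio runs from 2.62 to 3.78 in Mock and from 3.68 to 4.71 in Quinpirole libraries.

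*Grk2* was the leading receptor kinase and the other of the 10 genes that was called. The kinase it encodes is recruited to active receptors by free βγ dimers and phosphorylates them, D2 receptors included (chr19:4286001-4306222, minus strand, 4476 exonic bases). FPKM was 35.9, 34.8 and 33.6 in the Mock libraries and 30.8, 30.3 and 30.7 in the Quinpirole libraries. The groups did not overlap, and the Quinpirole libraries differed from each other by less than the Mock libraries did. The mean fell by 11.9%, from 34.8 ± 1.11 to 30.6 ± 0.265 FPKM (SD, n = 3), a log2 fold change of -0.18 with a standard error of 0.04 and a 95% interval of -0.27 to -0.09 (limma, adjusted p = 0.0371). The call withstood the length correction (-0.19, adjusted p = 0.0457) but not the joint correction for length and GC content (-0.15, adjusted p = 0.0675) or a variance fit without trend (adjusted p = 0.0593). As for *Gnao1*, it was lost without Mock 1, Mock 2, Quinpirole 1, Quinpirole 2 or Quinpirole 3 (adjusted p = 0.109, 0.119, 0.0822, 0.104 and 0.0725) and kept without Mock 3 (-0.20, adjusted p = 0.0402).

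*Grk5* and *Grk6* form the other branch of the kinase family, which is held at the membrane without βγ, and both showed overlapping groups. *Grk5* (chr19:60889749-61095968, plus strand, 7055 exonic bases) had 10.04 ± 0.297 FPKM in Mock and 10.4 ± 0.721 FPKM in Quinpirole libraries (SD, n = 3), and a log2 fold change of 0.05 with a 95% interval of -0.09 to 0.19 (limma, adjusted p = 0.608). *Grk6*, the kinase linked to D2 receptor desensitisation in the striatum (chr13:55445072-55460927, plus strand, 4202 exonic bases), had 22.4 ± 2.82 and 23.1 ± 1.43 FPKM. Its log2 fold change was 0.05 with a 95% interval of -0.17 to 0.26 (limma, adjusted p = 0.760), and its lowest value, 19.2 FPKM, was that of Mock 3. Without Mock 3 the log2 fold change of *Grk6* was -0.06 (adjusted p = 0.567), so that its sign rested on that library. The coding sequences of *Grk5* and *Grk6* were 66.7% identical, and that of *Grk2* was 49.3% identical to *Grk5* and 49.8% to *Grk6*.

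The remaining kinases were less abundant. *Grk3*, the closest relative of *Grk2* and like it a βγ-dependent kinase, had 8.19, 8.05 and 7.32 FPKM in Mock and 6.80, 6.24 and 6.92 FPKM in Quinpirole libraries. Its groups were apart in the direction of *Grk2*, with a log2 fold change of -0.21 (95% interval -0.36 to -0.06), but it was not called (limma, adjusted p = 0.0748). *Grk4* had 5.36 ± 0.592 and 5.02 ± 0.374 FPKM (SD, n = 3; adjusted p = 0.574), and *Grk1*, the rod photoreceptor kinase, was at 0.0201 FPKM or less in every library.

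Of the β-arrestins, *Arrb2* was the more abundant in every library. *Arrb2* encodes β-arrestin2 (chr11:70432635-70440828, plus strand, 2845 exonic bases), and its FPKM was 23.7, 21.7 and 25.4 in the Mock libraries and 22.8, 25.5 and 27.1 in the Quinpirole libraries. The groups overlapped, with 23.6 ± 1.85 and 25.1 ± 2.14 FPKM (SD, n = 3) and a log2 fold change of 0.08 with a 95% interval of -0.10 to 0.27 (limma, adjusted p = 0.490). An exon of *Arrb2* overlaps the microRNA gene *Mir7115*.

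*Arrb1*, which encodes β-arrestin1 (chr7:99535466-99606771, plus strand, 11175 exonic bases), had 7.47, 8.29 and 6.73 FPKM in the Mock libraries and 6.20, 6.28 and 5.74 FPKM in the Quinpirole libraries. All Quinpirole values were below all Mock values, and the means were 7.50 ± 0.785 and 6.07 ± 0.291 FPKM (SD, n = 3). The log2 fold change was -0.26 with a standard error of 0.08 and a 95% interval of -0.44 to -0.08, and the gene was not called (limma, adjusted p = 0.0709). It passed the threshold when libraries were rescaled to TPM (-0.36, adjusted p = 0.0442) and without Mock 3 (-0.33, adjusted p = 0.0449). With the length correction the log2 fold change was -0.15 (adjusted p = 0.260).

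Because a ratio of 2 genes within a library does not depend on how that library was scaled, the arrestins were also set against each other. A difference between libraries that varies with transcript length would remain in this ratio, since *Arrb1* has 11175 exonic bases and *Arrb2* 2845. With the length correction the log2 fold changes were -0.15 for *Arrb1* and 0.02 for *Arrb2*, beside -0.26 and 0.08 without it. *Arrb2* FPKM was 3.18, 2.62 and 3.78 times *Arrb1* FPKM in the Mock libraries and 3.68, 4.05 and 4.71 times in the Quinpirole libraries. The groups overlapped between Mock 3 and Quinpirole 1. On the log2 scale the ratio of *Arrb1* to *Arrb2* differed by -0.387 between the groups (two-sided exact permutation test, p = 0.2, with 0.1 the smallest possible). The coding sequences of the pair were 70.2% identical.

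Across the 9 members tested, 2 were called, 0 higher and 2 lower, beside 10.9% of all genes in either direction, 5.74% higher and 5.18% lower. The median log2 fold change was 0.05 over the 9 and 0.02 over all genes tested. Groups were apart for 4 of the 9, of which 3 were lower in Quinpirole libraries, beside 36.9% of all genes in either direction and 16.9% lower. At an unadjusted p under 0.05, 3 of the 9 passed, beside 3839 of the 12255 genes tested. These counts were not tested against the shares over all genes.

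**Figure D3:**
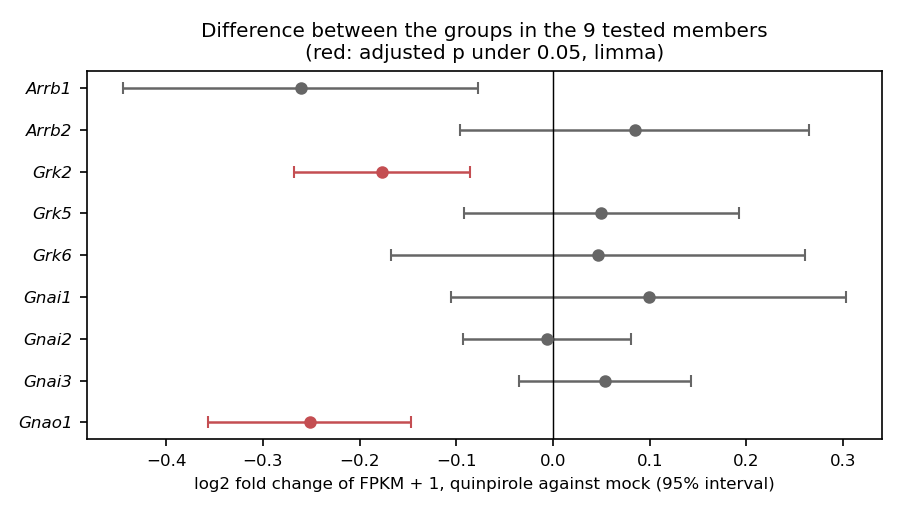
Log2 fold change of FPKM + 1, Quinpirole against Mock, for the 9 genes tested; points are limma estimates from 3 libraries a group, bars are 95% intervals, and red marks an adjusted p under 0.05. Only *Grk2* (-0.18) and *Gnao1* (-0.25) are red, the *Arrb1* interval also lies below 0, and the remaining 6 intervals include 0.

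The libraries in which the 2 called genes and *Arrb1* were lower also differed in technical properties. Summed FPKM was 401800 to 413700 in Mock and 425200 to 437200 in Quinpirole libraries, a sum that depends on the lengths of the transcripts sequenced. *Arrb1* and *Gnao1* had the most exonic bases of the 10 genes, 11175 and 11053 beside a median of 4521 over all genes tested. Theirs were the log2 fold changes that moved most under the length correction. Exonic bases, which the correction used, are the union of a gene's exons and not the length of a transcript. The longest transcript held 7086 words of 50 bases for *Arrb1*, 6531 for *Grk5* and 5477 for *Gnao1*. *Grk2*, with 4476 exonic bases, kept its value under that correction. Of the 3 astrocyte markers called lower, *Slc1a2* (13133 exonic bases, log2 fold change -0.42) and *Slc4a4* (10815 bases, -0.29) lost the call with the length correction (-0.27, adjusted p = 0.0575, and -0.18, adjusted p = 0.0724). *Atp1b2*, with 4085 exonic bases, kept it (-0.19 as deposited and -0.21 corrected, adjusted p = 0.0425). The part of transcript length and of astrocyte share in the lower values of *Gnao1*, *Grk2* and *Arrb1* was not tested beyond these values.

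**Figure D4:**
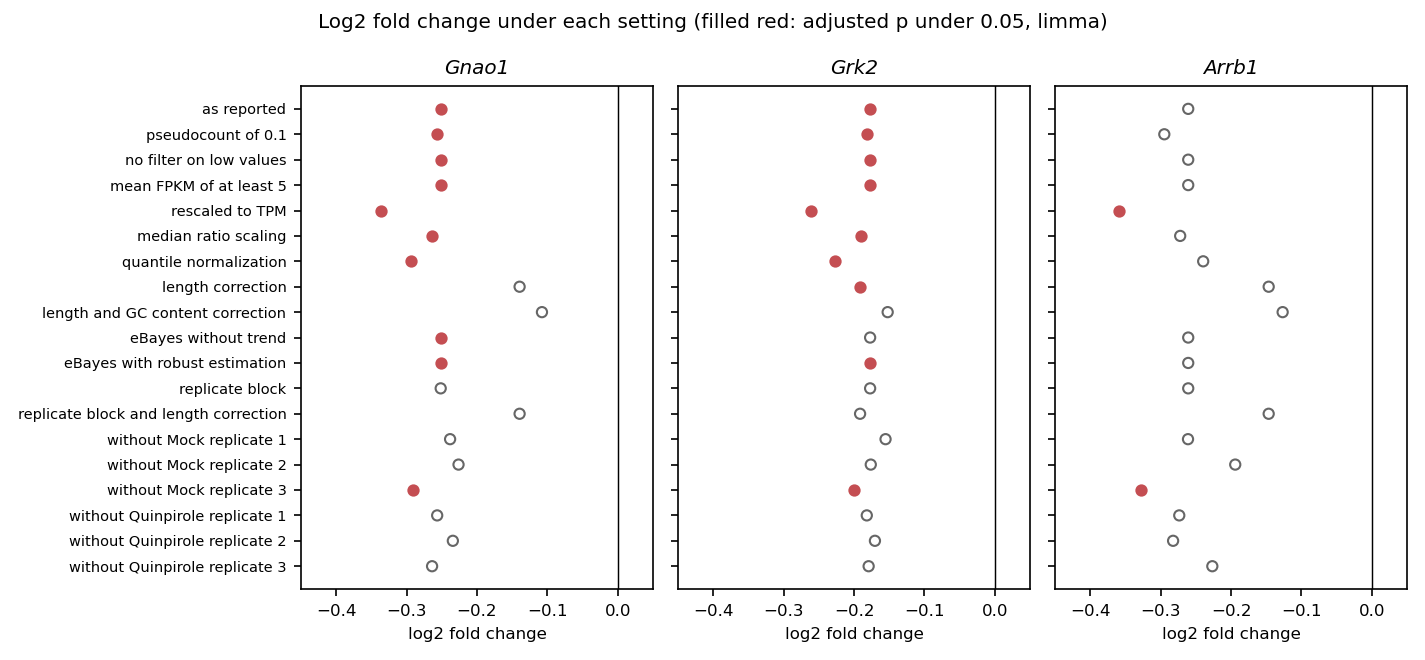
Log2 fold change of *Gnao1*, *Grk2* and *Arrb1*, Quinpirole against Mock, as reported and under each of 18 other settings; filled red points have an adjusted p under 0.05 (limma). All points lie below 0, from -0.34 to -0.11 for *Gnao1*, -0.26 to -0.15 for *Grk2* and -0.36 to -0.13 for *Arrb1*, and 9, 9 and 2 of the 18 alternatives pass the threshold.

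The wider pathway was described with 116 further genes in 12 lists, of which 114 had a row and 88 were tested. Of these, 10 were called, 7 higher and 3 lower, which is 11.4% beside 10.9% of all genes, with a median log2 fold change of 0.03. The split between directions depended on the scaling: 2 of 9 calls were higher after rescaling to TPM, 2 of 6 after quantile normalization, 5 of 9 with median ratio scaling and 1 of 4 with the length correction. Leaving out Mock 1, Mock 2, Quinpirole 1 or Quinpirole 2 left 0 of these 88 genes called by limma. At an unadjusted p under 0.05 there were 18 to 25, beside 2891 to 3374 of all 12255 genes tested. Leaving out Quinpirole 3 left 1 called and leaving out Mock 3 left 7. The genes called higher were short, with a median of 1800 exonic bases, and those called lower were long, with a median of 6782. The counts by list below come from few genes each and were not tested against the shares over all genes.

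The partners of the α subunits gave 3 of the called genes. Among 12 β and γ subunits tested, 3 γ subunits were called higher and 0 lower, beside 5.74% and 5.18% of all genes tested. *Gng5* rose from 148.0 ± 8.70 to 182.0 ± 4.75 FPKM (SD, n = 3), a log2 fold change of 0.30 (limma, adjusted p = 0.0246). *Gng11* rose from 8.67 ± 0.264 to 11.8 ± 1.45 FPKM (0.40, adjusted p = 0.0335) and *Gng10* from 23.6 ± 0.948 to 27.0 ± 0.984 FPKM (0.19, adjusted p = 0.0491). Corrected for length and GC content, these log2 fold changes had adjusted p of 0.0686, 0.0968 and 0.486, and *Gng10* also lost its call with TPM (adjusted p = 0.152). The most abundant β subunit was *Gnb2*, with 189.7 ± 3.39 and 211.6 ± 18.4 FPKM, and it was not called (adjusted p = 0.135). None of the 8 other α subunits tested was called by limma (2 at an unadjusted p under 0.05, beside 3839 of all 12255 genes tested). The most abundant of them was *Gnas*, with 506.8 ± 17.4 and 546.5 ± 13.9 FPKM (0.11, adjusted p = 0.120). Corrected for length and GC content, *Gnas* was called higher (0.28, limma adjusted p = 0.0473), but not with the length correction alone (0.22, adjusted p = 0.0581). Both corrections took 11186 exonic bases for *Gnas*, the union of its annotated exons, which need not be the length behind its FPKM.

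Regulators of the α subunits gave 1 called gene in each of 2 lists, beside 10.9% of all genes tested. Of 13 RGS proteins tested, which speed the return of α subunits to the inactive state, only *Rgs16* was called. It was also the most abundant, with 25.5, 22.9 and 22.9 FPKM in Mock and 27.8, 30.8 and 26.9 FPKM in Quinpirole libraries, a log2 fold change of 0.25 with an adjusted p of 0.0492 (limma). All Quinpirole values were above all Mock values. The call passed in 3 of 18 alternatives and was lost with TPM (adjusted p = 0.110), median ratio scaling (0.0583), quantile normalization (0.0735), the length correction (0.17, adjusted p = 0.158) and each library left out (adjusted p = 0.0634 to 0.148). Of 7 chaperones and modulators of α subunits tested, *Ccdc88c*, the gene of a guanine nucleotide exchange modulator named Daple, fell from 16.1 ± 0.0728 to 12.8 ± 0.402 FPKM (-0.31, adjusted p = 0.0225). The gene has 11386 exonic bases, and its call was lost with the length correction (-0.19, adjusted p = 0.0509) and with length and GC content (-0.14, adjusted p = 0.0996). *Ric8a*, the chaperone of several α subunits, had 21.2 ± 0.334 and 21.8 ± 0.884 FPKM (adjusted p = 0.581).

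Among effectors, *Adcy6* was the most abundant adenylyl cyclase and the only one of 8 tested that was called, beside 10.9% of all genes. Its product is a cyclase that Gi inhibits. FPKM was 20.9, 20.7 and 19.2 in Mock and 16.8, 15.8 and 16.2 in Quinpirole libraries, and the mean fell by 19.6% (log2 fold change -0.30, limma adjusted p = 0.0246). The call of *Adcy6* was kept with the length correction (-0.26, adjusted p = 0.0368) and with length and GC content (-0.23, adjusted p = 0.0448). The median log2 fold change of the 8 cyclases was -0.03. None of 6 protein kinase A subunits was called by limma (0 at an unadjusted p under 0.05, beside 3839 of all 12255 genes tested). *Prkar1a* was the most abundant, with 136.7 ± 5.98 and 130.5 ± 4.71 FPKM. The 4 genes of G protein-gated potassium channels, the effectors of βγ in neurons, reached at most 0.203 FPKM, for *Kcnj9*.

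The endocytic partners of the arrestins gave another 3 called genes of 10 tested, beside 10.9% of all genes. All 3 were higher with FPKM as deposited. None was called after rescaling to TPM, quantile normalization, the length correction or a variance fit without trend. *Ap2m1*, the AP-2 subunit that binds cargo, rose from 169.2 ± 13.3 to 205.0 ± 3.39 FPKM (SD, n = 3; log2 fold change 0.28, limma adjusted p = 0.0322). *Clta*, a clathrin light chain, rose from 134.5 ± 6.93 to 155.6 ± 1.70 FPKM (0.21, adjusted p = 0.0322), and *Ap2s1*, the small AP-2 subunit, from 132.0 ± 3.78 to 149.5 ± 3.56 FPKM (0.18, adjusted p = 0.0323). In that order, their adjusted p was 0.0538, 0.110 and 0.0715 with TPM, and 0.0579, 0.153 and 0.0842 when corrected for length and GC content. *Cltb*, the other light chain and the most abundant gene of the list, had 260.7 ± 10.3 and 288.7 ± 10.5 FPKM (adjusted p = 0.0706).

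On the arrestin scaffold, 1 of 17 kinase, phosphatase and ligase genes was called, beside 10.9% of all genes tested. *Mdm2*, a ubiquitin ligase that modifies β-arrestin, fell from 36.2 ± 1.26 to 31.9 ± 0.246 FPKM (SD, n = 3; -0.18, limma adjusted p = 0.0381). *Ppp2r1a*, the scaffold subunit of the phosphatase PP2A, was the most abundant of these genes with 163.1 ± 5.82 and 171.9 ± 6.11 FPKM (adjusted p = 0.272). None of the 5 α-arrestins tested was called by limma (1 at an unadjusted p under 0.05, beside 3839 of all 12255 genes tested). *Txnip* was the most abundant of them, with 70.0 ± 1.72 and 64.7 ± 2.15 FPKM (-0.11, adjusted p = 0.105). It was called lower with TPM (-0.19, adjusted p = 0.0255), quantile normalization (-0.18, 0.0371), the length correction (-0.17, 0.0456) and length and GC content (-0.17, 0.0436). *Arrdc1*, *Arrdc2*, *Arrdc3* and *Arrdc4* lay between 3.86 and 11.9 FPKM with adjusted p from 0.249 to 0.747. The visual arrestins *Sag* and *Arr3* and the α-arrestin *Arrdc5* stayed at or under 0.175 FPKM in every library.

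**Figure D5:**
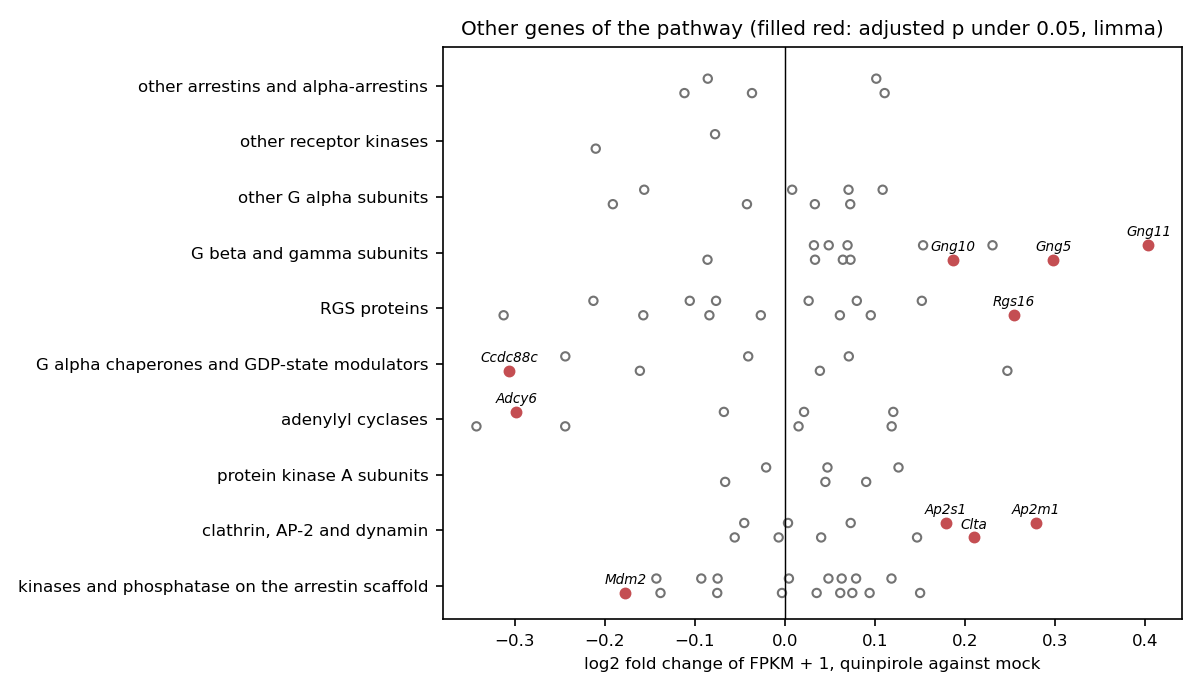
Log2 fold change of FPKM + 1, Quinpirole against Mock, for the 88 tested genes of 10 pathway lists (the D2-like receptor and potassium channel lists had none tested); each circle is a gene, and the 10 filled red circles, with names, have an adjusted p under 0.05 (limma). The 7 red circles to the right of 0 are βγ, RGS and endocytic genes, from *Ap2s1* (0.18) to *Gng11* (0.40), and the 3 to the left are *Ccdc88c*, *Adcy6* and *Mdm2*.

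Over the 6 libraries the gene whose log2(FPKM + 1) followed each member most closely, among 12254 others, was *Pcnx3* for *Gnao1* (Pearson r = 0.998), *Napb* for *Grk2* (0.998), *Wnt9a* for *Gnai2* (0.997), *Nampt* for *Gnai3* (0.993), *Xaf1* for *Arrb2* (0.990), *R3hdm1* for *Arrb1* (0.988), *Dazap1* for *Grk6* (0.986), *Tmem150a* for *Gnai1* (0.984) and *Cpox* for *Grk5* (0.981). These are the highest of many values over 6 points that share group and library scaling, and they are given as descriptions.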

How the data were processed

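RNA sequencing was performed on ACSA-2-isolated astrocytes in 3 Mock and 3 Quinpirole libraries, grouped by their labels. The authors made poly-A-selected paired-end libraries, removed adaptors and low-quality reads, mapped reads with TopHat2 (version not given in the sources used here) and deposited FPKM values per gene, 1 table a library. The submitters' processing notes name GRCm38, and the program that computed FPKM is not given in the sources used here. FPKM values are already divided by transcript length and depth, so no count model was used.

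Genes were named through GENCODE M21 and an identifier table, and lengths, positions and coding ends came from GENCODE M21 on GRCm38. Exonic length is the union of a gene's exons and need not be the length behind its FPKM. Genes with a mean of at least 1 FPKM were tested with limma 3.58.1 (R 4.3.3; eBayes with trend) on log2(FPKM + 1). Fold changes are on that scale, which understates those of low genes. The script was tested on simulated data. Ratios and shares were compared by exact permutation. Depth was estimated from steps of low FPKM values: 56.7% to 65.9% lay within 0.1 of a whole fragment, where chance gives 20%, so depths are approximate and counts were not recovered. No pair of libraries shared more than 0.0245% of its values, and the median absolute log2 difference was 0.0703 to 0.0928 within groups and 0.104 to 0.157 between them.

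The members, pathway lists and markers were chosen with earlier results of these data known. A microglial marker is not reported here. All members were named, with all other D2-like receptors, receptor kinases and arrestins. From each other list the called genes (at most 4) and the most abundant gene were named. Alternatives covered the pseudocount (0.1), the filter (none, or 5 FPKM), rescaling each library to the same sum (TPM), median ratio and quantile scaling, corrections by loess (span 0.3) for length and for length and GC content, the variance fit, a replicate block and leaving out each library.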

Additional observations from a re-analysis of the deposited data

How the results depend on the processing

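Called members numbered 2, both lower, and 1 with the length correction, 0 with length and GC content, 1 without trend, 0 with the replicate block, 0 with block and length correction, and 0 to 3 when 1 library was left out; only leaving out Mock 3 kept calls. Where the count was 0 by limma, 2 or 3 members had an unadjusted p under 0.05, beside 2723 to 3580 of the 12255 genes tested. Called pathway genes numbered 10, 7 of them higher, and 5 without filter, 9 with TPM (2 higher), 6 with quantile normalization (2 higher), 4 with the length correction, 5 with length and GC content, 4 without trend, 0 with the replicate block, 0 with block and length correction, and 0 to 7 without 1 library, with 18 to 25 at an unadjusted p under 0.05 where the count was 0. In the settings with a count of 0, 2723 to 3374 of the 12255 genes tested had an unadjusted p under 0.05. All called genes numbered 1339, and 633 without filter, 783 with quantile normalization, 509 with the length correction, 375 with length and GC content, 714 without trend, 2 with the replicate block, 0 with block and length correction (2723 at an unadjusted p under 0.05), and 3 to 1215 without 1 library. The cause of these changes was not tested, except that a left-out library or a block leaves fewer degrees of freedom.

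Of 162 values for the 9 members tested under the alternatives, 136 kept direction and side of the threshold, 18 lost the call, 2 gained it and 6 changed sign. The sign changes were in genes that were not called: *Grk5*, *Grk6* and *Gnai3* with rescaling to TPM (-0.0257, -0.0328 and -0.0261), *Gnai3* with length and GC content (-0.0444), and *Grk6* and *Gnai2* without Mock 3 (ranges over left-out libraries -0.056 to 0.112 and -0.0295 to 0.0171). Of 413 values for 23 named pathway genes, 5 changed sign: *Arrdc2* without Mock 3 (range -0.163 to 0.0175), *Arrdc4* without Quinpirole 1 (range -0.088 to 0.0127), *Ric8a* with TPM (-0.0402), and *Ppp2r1a* with TPM (-0.00637) and quantile normalization (-0.0206). Rescaling to TPM moved the median log2 fold change of all genes from 0.02 to -0.06. The arrestin ratio and the *Gnai2* share kept their sign in every alternative run, with exact p of 0.1 to 0.4 and 0.1 to 0.6. The permutation test cannot go below 0.1, and the exact sign flips used for the replicate block have a higher floor.

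Deviations of same-numbered libraries from their group means were almost uncorrelated (0.026, -0.0657 and -0.103). The labels do not say whether equal numbers share an animal or a day, and these correlations cannot settle it. With the block *Gnao1* had an adjusted p of 0.0836 and *Grk2* of 0.101 (limma), and the block is given for completeness. Depth limits *Drd2*, *Drd3* and *Drd4*, for which a few fragments a library cannot show a difference.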

Other observations

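Quinpirole acts on D2-like receptors, which were near 0, but the G proteins, kinases and arrestins examined here also serve other receptors of the Gi class, so 23 genes of such receptors were looked up. The list was chosen after the data had been seen, and its values are given with no test. Of the 21 with a row, 10 had a mean of at least 1 FPKM and 11 were lower. *Cxcr4*, the receptor of the chemokine CXCL12, was the most abundant, with 35.9 to 42.8 FPKM over the 6 libraries. *Gabbr1*, a subunit of the GABA-B receptor, had 24.9 to 27.8 FPKM, whereas *Gabbr2*, the subunit that couples it to G proteins, had 0.243 to 0.391 FPKM. *S1pr1* and *Lpar1*, receptors of the lipids sphingosine 1-phosphate and lysophosphatidic acid, had 19.9 to 22.7 and 19.7 to 22.1 FPKM. *Adora1*, the adenosine A1 receptor, had the widest spread of the 10 between libraries of a group, with 18.5, 13.2 and 24.9 FPKM in Mock and 17.6, 16.4 and 24.4 FPKM in Quinpirole libraries. *Sstr2*, a somatostatin receptor, had 7.89 to 8.70 FPKM in Mock and 9.30 to 9.74 FPKM in Quinpirole libraries. It was the only one of the 10 whose groups did not overlap, beside 36.9% of all genes tested. *Grm3*, the metabotropic glutamate receptor known from astrocytes, had 0.465 to 0.676 FPKM.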
